A study of Mus musculus with 9 samples.

Results

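The genes described here encode the semaphorins, plexins, neuropilins, ephrins, Eph receptors, Slits, Robo receptors and Unc5 receptors. Members were chosen by gene name alone, as every row of the count table named Sema3 to Sema7, Plxn, Nrp, Efna, Efnb, Epha, Ephb, Slit, Robo or Unc5. This rule took 64 of 24186 genes: 20 semaphorins, 9 plexins, 2 neuropilins, 5 A ephrins, 3 B ephrins, 9 EphA receptors, 5 EphB receptors, 3 Slits, 4 Robos and 4 Unc5 receptors. A filter on low counts left 55 of the 64 for testing, and the other 9 are given below by their counts.

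The cells were bone marrow stromal cultures of adult C57Bl/6 mice carrying the irtTA-GBD*-TAg transgene, from which dexamethasone and doxycycline induce the large T antigen. All groups were thus made of conditionally immortalised cells that had been cloned, and all were kept without both inducers for 3 days before RNA was taken. The groups were adipogenic progenitors without further treatment, adipogenic progenitors given 10 ng/ml IFNγ for 3 days, and untreated osteogenic progenitors, with 3 libraries in each. Libraries carry the numbers 4, 5 and 6 in every group. The series design names 3 biological replicates of each kind. Which clones or mice they came from is not given in the sources used here, so the p-values measure the spread between these libraries alone. The 3 comparisons share libraries pairwise, so their values are set side by side without a measure of likeness between them.

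These families were first known for steering axons. Semaphorins bind plexins, often with a neuropilin as co-receptor for the secreted class 3 members, and the plexin then acts on small GTPases and on integrin adhesion. Ephrins sit on the membrane of one cell and Eph receptor tyrosine kinases on the next, so that contact signals in both directions and sorts cells into domains. Slits are secreted proteins read by Robos, and Unc5 proteins are receptors for netrins. In bone, Sema4d from osteoclasts restrains osteoblasts through Plxnb1, Sema3a acts on bone-forming and bone-resorbing cells through Nrp1, and Efnb2 and Ephb4 carry contact signals between osteoclasts and osteoblasts.

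Promoter sequence is shown for Slit2 and Efnb1, since they were the 2 members whose change with IFNγ was called in the paired test whichever pair was left out, as described below. The sequences are from RefSeq on build GRCm38.p6 and cover the 250 bases before the annotated start, on the + strand of chr5:47982905-47983154 for Slit2 and of chrX:99135811-99136060 for Efnb1. Capitals mark the letters TATAAA, searched on both strands, which lie 28 bases before the start of Slit2 and are not in the printed bases of Efnb1.
Slit2: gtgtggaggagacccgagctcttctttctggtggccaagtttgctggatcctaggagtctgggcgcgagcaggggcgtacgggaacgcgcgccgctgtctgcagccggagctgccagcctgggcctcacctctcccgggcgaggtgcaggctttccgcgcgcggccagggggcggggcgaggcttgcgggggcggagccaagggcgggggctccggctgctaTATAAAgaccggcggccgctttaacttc
Efnb1: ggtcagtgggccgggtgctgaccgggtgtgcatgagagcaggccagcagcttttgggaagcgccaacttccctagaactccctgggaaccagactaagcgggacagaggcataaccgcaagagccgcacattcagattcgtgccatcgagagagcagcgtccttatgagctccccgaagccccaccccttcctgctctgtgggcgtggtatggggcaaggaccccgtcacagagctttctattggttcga

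Interferon regulatory factors, through which interferons act in part, bind the element called ISRE. Windows of 300 bases, from 250 before to 50 after the start, were searched on both strands for 2 copies of GAAA with any 2 bases between them (ISRE), and 56 of the 64 members had a window. ISRE letters were in the windows of 2 members, Plxnc1 and Sema6b, against 3.99% of all genes. TATAAA was in those of Slit2 and Efnb2, against 15.7% of all genes. The stretches below hold the matches in capitals with the neighbouring bases, and they show which members carry such letters at all, whatever their response. They lie at chr10:94944944-94944973 (− strand) and chr17:56140470-56140499 (− strand) in the order printed.
Plxnc1: ttcacaatggGAAAGTGAAAcgcacaagcg
Sema6b: gggaggcagaGAAAGGGAAActgaggccaa

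Library totals ran between 27440089 and 39251602 counts. A gene with 0 counts could thus have had up to 0.0749 to 0.113 CPM, its counts relative to library size, if 3 counts per library are taken as the floor and counting error alone is considered. Levels of different genes are compared as RPKM, which is CPM per kilobase of exonic length. The labelled cell types were checked against marker genes. Of 9 osteoblast genes Sp7, Alpl, Col1a1, Runx2 and Ibsp were higher in each osteogenic library than in any adipogenic one. Spp1, Bglap, Bglap2 and Dmp1 overlapped between osteogenic and untreated adipogenic libraries, Spp1 at 190 to 1450 CPM against 212 to 1360 CPM. The list summed to 31110 to 44190 CPM in osteogenic, 4515 to 10300 CPM in untreated and 1799 to 3834 CPM in treated libraries. Most of the osteogenic sum was Col1a1, at 28900 to 43600 CPM. The 7 genes of the adipocyte list summed to 74.88 to 646.3 CPM in untreated, 87.19 to 333.3 CPM in treated and 37.1 to 77.95 CPM in osteogenic libraries, with library 6 highest in both adipogenic groups. Within it Lpl stood at 12.3 to 291 CPM in untreated adipogenic against 2.15 to 3.57 CPM in osteogenic libraries, and Pparg at 20 to 60.5 CPM against 4.8 to 13.2 CPM. Fabp4, at 21.5 to 234 CPM against 9.09 to 33.9 CPM, and Cebpa, at 10.8 to 60.9 CPM against 21 to 36.4 CPM, overlapped. Adipoq and Plin1, which mature fat cells make, were at or under 0.2 CPM in all 9. Of 10 stromal progenitor markers Pdgfrb stood at 113 to 388 CPM and Prrx1 at 118 to 520 CPM over all libraries. Cxcl12 stood at 780 to 3540 CPM in untreated, 268 to 712 CPM in treated and 941 to 1400 CPM in osteogenic libraries. Ly6a stood at 58.5 to 128, 1040 to 1750 and 32 to 55.1 CPM in the same groups. Over all libraries Vcam1 ran from 18.8 to 152 CPM, Pdgfra from 7.33 to 34.1, Eng from 2.39 to 60.2 and Nt5e from 0.674 to 5.31 CPM. Lepr was at or under 0.427 CPM and Thy1 at or under 0.0296 CPM. Of the 8 markers of endothelial cells Emcn was at 0 in all libraries, and Pecam1, Cdh5 and Tie1 were at or under 0.171 CPM. Tek was at or under 0.536 CPM and Esam at or under 0.882 CPM. Kdr stood at 8.65 to 17.4 CPM in untreated, 21.5 to 53.9 CPM in treated and 1.35 to 2.39 CPM in osteogenic libraries. Vwf was likewise lowest in osteogenic libraries, at 0.453 to 0.847 CPM, against 2.2 to 2.48 CPM in untreated and 1.59 to 6.89 CPM in treated ones. Sox10, which defines Schwann cells, was at 0 in all libraries, and Ptprc, which blood cells carry, was at or under 0.0998 CPM. Of the 7 matched blood and macrophage genes Cd68 alone exceeded 1 CPM, at 3.48 to 18.6 CPM over all libraries. Tubb3 carried nearly all of the neural list, at 1.6 to 15.7, 103 to 181 and 25.5 to 34.3 CPM in the 3 groups. The pericyte and smooth muscle list, led by Acta2, summed to 1636 to 3330 CPM in untreated, 755.5 to 1127 CPM in treated and 4991 to 13240 CPM in osteogenic libraries. The part of these lists in the results below was not tested.

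Plexins made up the most abundant receptors. Plxnb2, a receptor for class 4 semaphorins, had the highest level of all members in each group, with means of 110.8 ± 16.8, 104.1 ± 23.6 and 103.9 ± 8.25 RPKM (SD, n = 3) in untreated adipogenic, treated adipogenic and osteogenic libraries. Its libraries ran from 93.7 to 127 RPKM without treatment, from 89.9 to 131 RPKM with IFNγ and from 95.5 to 112 RPKM in osteogenic cells. The groups overlapped throughout, and no comparison passed the test. Plxna1, which pairs with neuropilins to read class 3 semaphorins, was next with an average of 65.2 RPKM over the group means. Behind these came Epha2 at 46.6, Unc5b at 46.0, Sema3f at 32.3, Efnb1 at 30.8, Nrp2 at 30.7, Nrp1 at 27.8 and Efnb2 at 24 RPKM. Plxna1 reached 114 RPKM in untreated library 5, within the untreated range of Plxnb2, though Plxnb2 was higher within each single library. Libraries of neighbours in this order also overlapped from Plxna1 down, so their order is not resolved beyond the spread. Ligands and receptors were thus both present at high level in the semaphorin and ephrin families, while the leading Robo, Robo1, did not exceed 6.79 RPKM in any library.

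**Figure D1:**
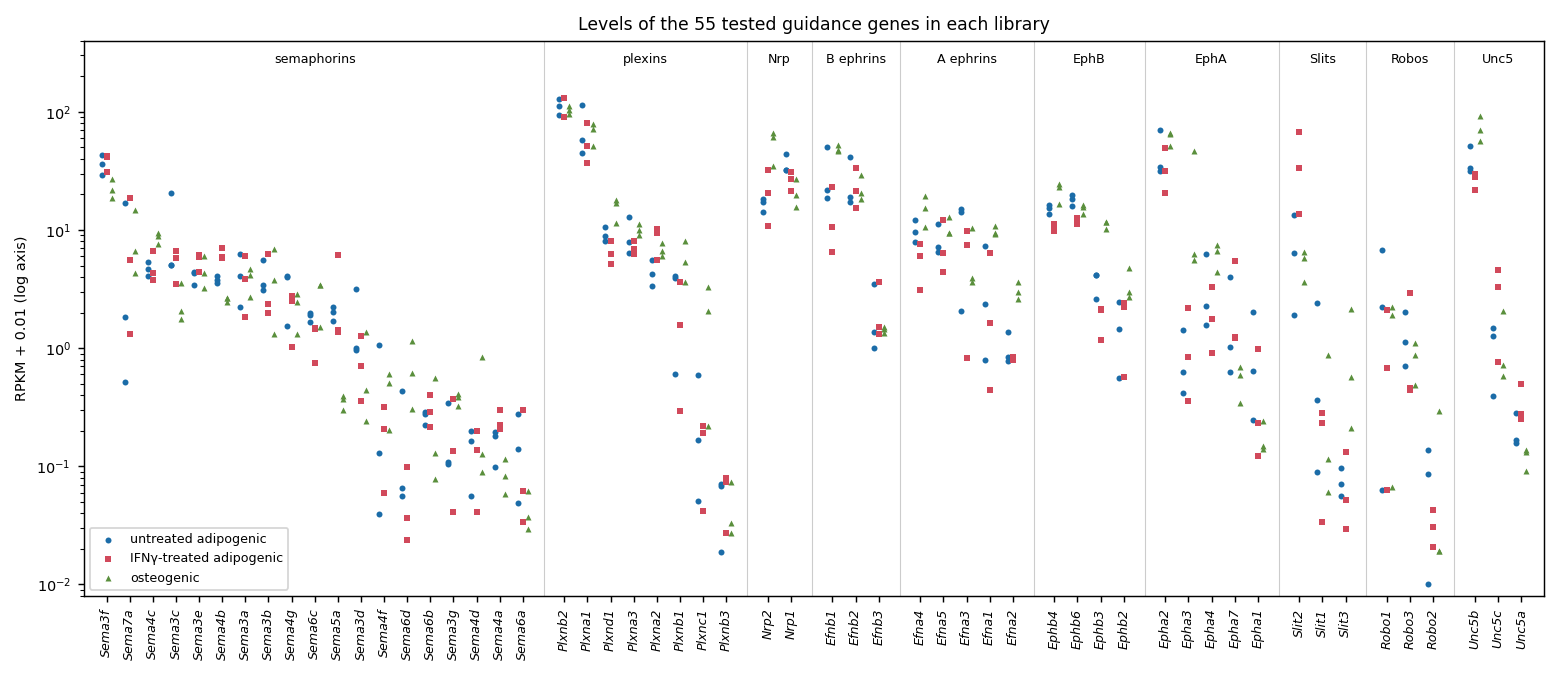
Each point is 1 library, as RPKM plus 0.01 on a log axis, for the 55 tested members grouped by family and ordered by their average. Plxnb2 lies highest, at 89.9 to 131 RPKM in all groups, while Robo1, Slit1 and Sema7a spread widely among libraries of one group.

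Some members share exonic bases with another annotated gene, on GENCODE M21 of build GRCm38, and the strand setting of the counting is not given, so that reads of the partners could not be told apart. The tested members concerned, with an antisense or opposite-strand partner, were Efna3, Efna4, Epha1 (with Zyx, over 236 bases), Ephb4 (with Zan, over 33 bases), Plxna1, Plxnb1, Sema4c, Unc5a (with Hk3, over 34 bases) and Unc5c. Nrp1, Plxnc1 and Sema4a overlap a small gene on their own strand.

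With IFNγ, Slit2 rose and Efnb1 and 3 EphB receptors fell, once libraries of the same number were compared. The treated and untreated adipogenic libraries of one number deviated together from their group means, with correlations across genes of 0.778, 0.769 and 0.779, so the numbers were taken as pairs. Two-sided edgeR tests with Benjamini-Hochberg adjustment over all genes are given without the pairing, and the paired fit to the 6 adipogenic libraries is given beside them. Without the pairing 1 of the 55 tested members, Sema4b, passed an adjusted p of 0.05, against 2.26% of all genes tested (2.01% for rises). With it 18 of 55 passed, against 16.6% of all genes, 5 of them higher (8.61% of all genes) and 13 lower (8.02%). The median log2 change of the 55 members was −0.25, against −0.02 over all genes tested, and 33 of 55 moved one way in all 3 pairs, against 56.6% of all genes: 22 were lower, against 29.7% of all genes, and 11 higher (26.9%). In 11 of 55 members the treated and untreated libraries did not overlap, against 17.4% of all genes, with all treated libraries lower in 8 (7.17%) and higher in 3 (10.2%).

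Slit2, the secreted ligand of Robo1 and Robo2, stood at 6.37, 13.5 and 1.92 RPKM in untreated libraries 4, 5 and 6. With IFNγ the same numbers gave 33.8, 67.9 and 13.7 RPKM, and the osteogenic libraries gave 3.65, 5.78 and 6.48 RPKM. The lowest treated library was just above the highest untreated one, and library 6 was lowest and library 5 highest both with and without treatment. Within the pairs Slit2 was 5.30-, 5.05- and 7.13-fold higher with IFNγ. The paired log2 change was 2.51 (SE 0.13, adjusted p = 0.0012), and it ran from 2.37 to 2.6 with adjusted p up to 0.0189 when 1 pair was left out. Without the pairing the same change of 2.41 (SE 0.76) did not pass (adjusted p = 0.18). The 2 other Slits were far lower. Slit1 read 2.42, 0.351 and 0.0801 RPKM without and 0.274, 0.224 and 0.024 RPKM with IFNγ, lower in 3 of 3 pairs but not past the paired test (adjusted p = 0.0815), and Slit3 is described with the osteogenic libraries. Slit RPKM summed to 8.26 ± 5.91 without and 38.7 ± 27.5 with IFNγ (SD, n = 3), nearly all of it Slit2. The window searched for it, which runs 50 bases past the stretch printed above, does not hold the ISRE letters.

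Of the Robo receptors Robo1 alone was called, in the paired fit. It stood at 0.0531, 6.79 and 2.21 RPKM in untreated and at 0.0526, 2.10 and 0.672 RPKM in treated libraries 4, 5 and 6. Number 4 was thus almost without Robo1 in both conditions, and numbers 5 and 6 had 0.309 and 0.305 of their untreated level. The paired log2 change was −1.50 (SE 0.28, adjusted p = 0.0268), which was lost in 2 of 3 fits that left out a pair (adjusted p up to 0.185). Robo2 was scarce, at 0, 2.1 and 1.25 CPM without and 0.177, 0.536 and 0.341 CPM with IFNγ. Its 2 measurable pairs were at 0.254 and 0.273 of the untreated level, which did not pass (paired adjusted p = 0.286).

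Sema4b, a membrane-bound class 4 semaphorin, had little spread within groups. It read 3.52, 4.08 and 3.73 RPKM in untreated, 5.86, 6.97 and 5.83 RPKM in treated and 2.65, 2.46 and 2.63 RPKM in osteogenic libraries. The 3 groups did not overlap, with treated libraries highest and osteogenic ones lowest. The log2 change with IFNγ was 0.72 (SE 0.13, adjusted p = 0.0283) without and 0.70 (SE 0.09, adjusted p = 0.0103) with the pairing, and the pairs rose 1.66-, 1.71- and 1.56-fold. Leaving out any of the 6 libraries ended the unpaired call, with adjusted p from 0.056 to 0.128 at log2 changes of 0.61 to 0.78. Sema3e, a secreted ligand that binds Plxnd1 without a neuropilin, rose in 3 of 3 pairs by a paired log2 change of 0.41 (SE 0.08, adjusted p = 0.0332). This call was lost in each of the 3 fits without a pair (adjusted p up to 0.127). Sema3d (paired log2 change −1.11, adjusted p = 0.0288), Sema4g (−0.62, 0.0223) and Sema6d (−1.80, 0.0336) fell in the paired fit. Each of them lost its call in at least 2 of the 3 fits without a pair.

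Other semaphorins were not called with IFNγ. Sema3f, the Nrp2 ligand and the most abundant semaphorin, stood at 36.0, 29.2 and 43.5 RPKM in untreated and at 30.8, 41.1 and 41.9 RPKM in treated libraries, with overlapping groups and a log2 change of 0.07 (SE 0.20, adjusted p = 0.936). Sema3a, the Nrp1 ligand, read 6.26, 4.10 and 2.21 RPKM without and 5.96, 3.84 and 1.83 RPKM with IFNγ. The differences between numbers were larger than those within pairs, and the log2 change was −0.11 (SE 0.48, adjusted p = 0.955). Sema7a, which is anchored to the membrane by a lipid and binds Plxnc1 and integrins, ranged from 0.504 to 16.8 RPKM among untreated and from 1.32 to 18.5 RPKM among treated libraries. It was 2.62-, 1.10- and 3.05-fold higher in the pairs, and the paired log2 change of 0.97 (SE 0.32) did not pass (adjusted p = 0.104). Sema4d, the ligand of Plxnb1, was low at 0.188, 0.154 and 0.0464 RPKM without and 0.188, 0.127 and 0.0308 RPKM with IFNγ (adjusted p = 0.969).

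Among their receptors Plxna2, a plexin for class 3 and class 6 semaphorins, rose with IFNγ. Its levels were 3.35, 4.21 and 5.57 RPKM in untreated and 5.56, 9.51 and 10.2 RPKM in treated libraries. The groups touched at 5.57 and 5.56 RPKM, while each pair rose, by 1.66-, 2.26- and 1.83-fold. The paired log2 change was 0.91 (SE 0.12, adjusted p = 0.0096), and the unpaired one of 0.94 (SE 0.26) did not pass (adjusted p = 0.138). Leaving out pair by pair, 2 of 3 fits kept the call, with adjusted p up to 0.067. Nrp1, the co-receptor for Sema3a that also binds VEGF, fell from 32.4, 43.9 and 31.9 RPKM to 21.4, 31.3 and 27.1 RPKM. Each treated library lay below the lowest untreated one, with a paired log2 change of −0.46 (SE 0.11, adjusted p = 0.0458) that no fit without a pair kept (adjusted p up to 0.138). Nrp2 moved in different directions among the pairs, from 17.3, 14.3 and 18.3 RPKM to 32.4, 10.7 and 20.7 RPKM, and was not called (paired adjusted p = 0.607). Plxnb1 went from 3.90, 4.11 and 0.594 RPKM to 3.59, 1.57 and 0.285 RPKM and Plxnd1 from 8.85, 10.6 and 8.10 RPKM to 8.08, 5.11 and 6.29 RPKM, neither past the paired test (adjusted p = 0.0903 and 0.117).

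EphB receptors were lower with IFNγ in 3 of their 4 tested genes. Ephb3 stood at 4.12, 4.17 and 2.59 RPKM in untreated and 2.10, 2.13 and 1.17 RPKM in treated libraries, so that the groups did not overlap and each pair fell to between 0.454 and 0.512 of its untreated level. Its paired log2 change was −1.04 (SE 0.10, adjusted p = 0.00596). Ephb4, the receptor of Efnb2, fell from 16.3, 13.6 and 15.2 RPKM to 11.3, 9.85 and 10.2 RPKM (paired log2 change −0.54, SE 0.08, adjusted p = 0.014). Ephb6, a family member without kinase activity, fell by a paired log2 change of −0.58 (SE 0.08, adjusted p = 0.0123). Without the pairing these 3 had adjusted p of 0.118, 0.171 and 0.0709, and each kept its paired call in 2 of the 3 fits without a pair. Ephb2 differed: it read 0.554, 2.44 and 1.44 RPKM without and 0.560, 2.38 and 2.23 RPKM with IFNγ (paired adjusted p = 0.458). Summed over the EphB receptors the level was 38.1 ± 1.73 RPKM in untreated, 26.1 ± 0.444 RPKM in treated and 51.3 ± 1.88 RPKM in osteogenic libraries (SD, n = 3). The summed groups did not overlap, and libraries of one group differed by far less than the groups did. Not every member shared the order of the sum. Ephb6 read 13.55, 15.5 and 16.14 RPKM in osteogenic and 18.14, 15.95 and 19.89 RPKM in untreated libraries, which overlapped (edgeR log2 change −0.26, adjusted p = 0.267).

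B ephrins, the ligands of these receptors, split. Efnb1 read 18.7, 50.8 and 21.9 RPKM in untreated and 6.46, 23.0 and 10.5 RPKM in treated libraries. Number 5 was highest in both conditions, which made the groups overlap, yet each pair fell, to 0.346, 0.453 and 0.480 of its untreated level. The paired log2 change was −1.25 (SE 0.12, adjusted p = 0.0059) and kept its call in all 3 fits without a pair (−1.34 to −1.10, adjusted p up to 0.0418), which among the 18 members called held for Slit2 and Efnb1 only. Without the pairing it was −1.19 (SE 0.51, adjusted p = 0.335). Efnb2 stood at 17.2, 41.7 and 19.1 RPKM without and 15.3, 33.2 and 21.2 RPKM with IFNγ, with a paired log2 change of −0.13 (SE 0.12, adjusted p = 0.493).

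Of the A class, Efna4 fell from 9.70, 12.1 and 7.91 RPKM to 5.97, 7.55 and 3.11 RPKM with IFNγ. All treated libraries lay below the untreated ones, and the paired log2 change was −0.92 (SE 0.17, adjusted p = 0.024). Efna3 (paired log2 change −0.93, adjusted p = 0.0187), Epha1 (−1.22, 0.0233) and Epha4 (−0.72, 0.0322) also fell in the paired fit, each in 3 of 3 pairs. Efna4 kept its call in 2 of 3 fits without a pair, Efna3 and Epha4 in 1 and Epha1 in none. Epha2, the leading EphA receptor, stood at 31.6, 69.9 and 34.2 RPKM without and 20.5, 49.8 and 31.8 RPKM with IFNγ. Although lower in 3 of 3 pairs, its paired log2 change of −0.42 (SE 0.13) did not pass (adjusted p = 0.0847). Epha3 and Efna2 were not called with IFNγ either.

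Of the Unc5 receptors 1 was called in the paired fit. Unc5c, a netrin receptor, rose from 0.382, 1.25 and 1.48 RPKM to 0.750, 4.55 and 3.27 RPKM, by a paired log2 change of 1.33 (SE 0.20, adjusted p = 0.0144) that 2 of 3 fits without a pair kept. Unc5b, the most abundant of the family, went from 33.7, 51.0 and 31.5 RPKM to 21.9, 29.6 and 28.0 RPKM. Its treated libraries lay below all untreated ones, but the paired log2 change of −0.54 (SE 0.14) did not pass (adjusted p = 0.0585). Unc5a was low, at 0.149, 0.157 and 0.275 RPKM without and 0.270, 0.244 and 0.484 RPKM with IFNγ, and was 1.55- to 1.81-fold higher in the pairs (paired adjusted p = 0.0853).

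Pair 6 weighed most in these calls. The paired count of 18 members became 13 without pair 4 (against 10.5% of all genes), 15 without pair 5 (10.1%) and 2 without pair 6 (2.52%). A fit with 3 pairs has few residual degrees of freedom, and the paired counts rest on it.

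**Figure D2:**
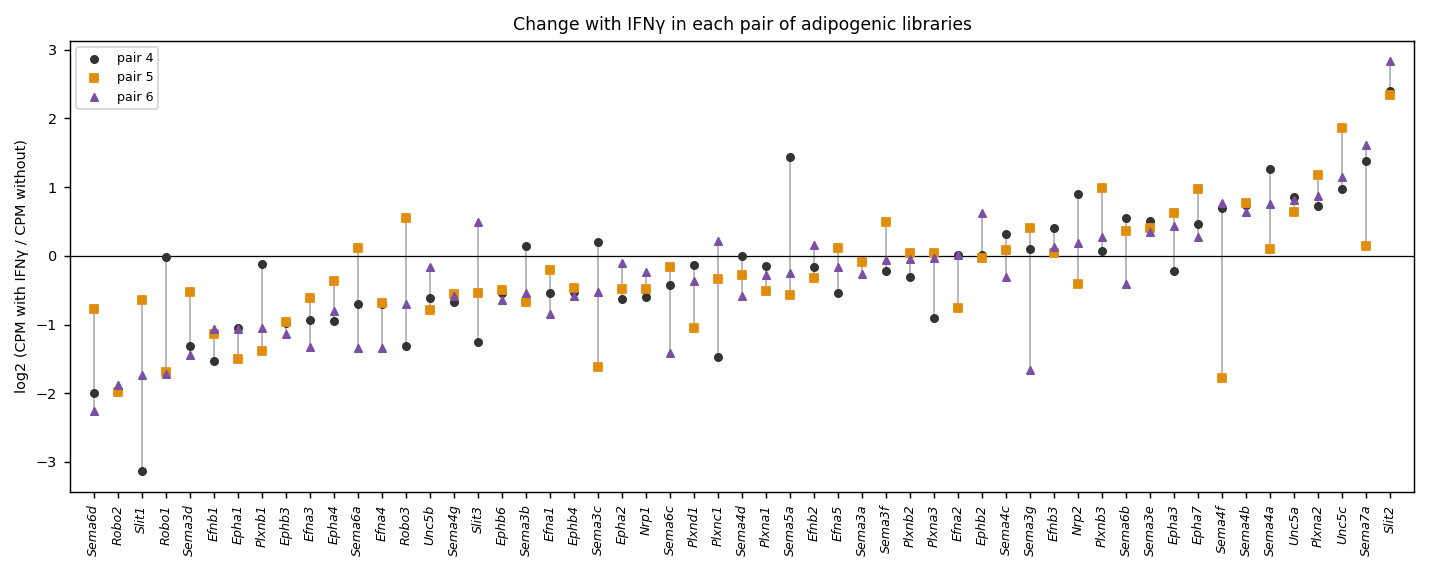
Each point is the log2 ratio of CPM with IFNγ to CPM without it in 1 pair of adipogenic libraries (numbers 4, 5 and 6), for the 55 tested members ordered by their median, and grey bars span the pairs. Slit2 lies at the far right with 5.05- to 7.13-fold in its 3 pairs. Robo2 has no point for pair 4, where its untreated count was 0.

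Between osteogenic and untreated adipogenic progenitors Ephb3, Efna2 and Nrp2 were higher in osteogenic cells and Sema5a and Sema4b were lower. These were the 5 members of 55 past an adjusted p of 0.05, against 5.17% of all genes tested, with 3 higher (1.98% of all genes) and 2 lower (3.19%). No overlap between the 3 libraries of each group was seen in 19 of 55 members, against 31% of all genes. The median log2 change was 0.11 over the members and −0.02 over all genes.

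Ephb3 stood at 10.1, 11.6 and 11.7 RPKM in osteogenic libraries 4, 5 and 6, above each untreated adipogenic value given above, with a log2 change of 1.62 (SE 0.27, adjusted p = 0.0177). Efna2, an A ephrin described in osteoclast and osteoblast signalling together with Epha2, read 3.65, 2.97 and 2.6 RPKM in osteogenic and 0.767, 1.35 and 0.831 RPKM in untreated adipogenic libraries. These groups did not overlap, and the log2 change was 1.64 (SE 0.29, adjusted p = 0.0204). Nrp2, the co-receptor for Sema3f, reached 60.9, 35.1 and 66.1 RPKM in osteogenic libraries against 14.3 to 18.3 RPKM in untreated adipogenic ones. Its log2 change was 1.70 (SE 0.40, adjusted p = 0.0495). Nrp1 was at 19.6, 27 and 15.8 RPKM in osteogenic libraries, all below the untreated adipogenic ones, without passing the test (log2 change −0.79, SE 0.24, adjusted p = 0.0967). Nrp2 exceeded Nrp1 in each osteogenic library, and Nrp1 exceeded Nrp2 in each untreated adipogenic one.

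Sema5a, a transmembrane semaphorin with thrombospondin repeats, read 0.386, 0.358 and 0.290 RPKM in osteogenic and 2.24, 2.00 and 1.69 RPKM in untreated adipogenic libraries. The groups lay far apart relative to their spread, with a log2 change of −2.52 (SE 0.58, adjusted p = 0.0458). Sema4b was lower in osteogenic libraries by a log2 change of −0.55 (SE 0.13, adjusted p = 0.0496). All these calls were close to the threshold. Leaving out each of the 6 libraries in turn, Nrp2, Sema5a and Sema4b lost theirs in every fit, with adjusted p of 0.0674 to 0.143, 0.0855 to 0.15 and 0.0843 to 0.169. Ephb3 kept its call without untreated adipogenic library 4 or 5 and reached 0.0654 otherwise, and Efna2 kept its call without untreated adipogenic library 5 alone and reached 0.0812.

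Several genes known for bone signalling were not called between these groups. Plxnb1 read 3.60, 8.09 and 5.34 RPKM in osteogenic libraries, overlapping the untreated adipogenic ones (adjusted p = 0.552). Sema4d read 0.834, 0.117 and 0.0788 RPKM there, where library 4 alone stood above all adipogenic libraries (adjusted p = 0.441). Sema3a was at 4.19, 2.72 and 4.66 RPKM (adjusted p = 0.911) and Efnb2 at 29.3, 20.4 and 18.2 RPKM (adjusted p = 0.813), both within the untreated adipogenic range. Ephb4 was at 24.7, 23.2 and 16.7 RPKM, above all untreated adipogenic libraries, without passing the test (log2 change 0.52, SE 0.16, adjusted p = 0.109). Robo1 was at 0.057, 2.23 and 1.88 RPKM and Robo2 at 0.151, 0.150 and 4.66 CPM, both overlapping (adjusted p = 0.733 and 0.864). Sema7a was at 14.6, 4.29 and 6.66 RPKM and Ephb2 at 3.01, 2.71 and 4.78 RPKM (adjusted p = 0.876 and 0.279).

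More members were called where osteogenic progenitors were set against IFNγ-treated adipogenic ones. Here 17 of 55 members passed, against 16.7% of all genes tested: 6 were higher in treated adipogenic cells (9.2% of all genes) and 11 were lower (7.52%). Among the 27 members whose libraries did not overlap, against 38.5% of all genes, 20 were lower in treated adipogenic cells (18.8% of all genes) and 7 were higher (19.7%). The median log2 difference, treated adipogenic minus osteogenic, was −0.31 over the members and 0.03 over all genes. This comparison joins a difference in cell type with one in treatment, and the design has no treated osteogenic library that would separate them.

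Receptors and ligands of the Eph system were 6 of the 11 lower members. The 55 members tested held 5 A ephrins, 3 B ephrins, 5 EphA receptors and 4 EphB receptors. Ephb3 was lowest relative to osteogenic cells among the members with steady calls, with a log2 difference of −2.63 (SE 0.28, adjusted p = 0.000803). Ephb4 had −1.04 (SE 0.16, adjusted p = 0.00483), and its 3 treated libraries, at 9.85 to 11.3 RPKM, lay below the 3 osteogenic ones. Efna2 read 0.777, 0.794 and 0.839 RPKM in treated adipogenic libraries, all below the osteogenic ones (log2 difference −1.93, SE 0.29, adjusted p = 0.00397). Efna4 stood at 19.3, 15.4 and 10.5 RPKM in osteogenic libraries, above each treated value (−1.44, SE 0.36, adjusted p = 0.0295). Efnb1 was at 47.6, 46.3 and 52.3 RPKM in osteogenic libraries, above each treated value as well (−1.87, SE 0.52, adjusted p = 0.0425). Epha2, at 66.2, 51.0 and 64.6 RPKM in osteogenic libraries, was not called (−0.83, SE 0.39, adjusted p = 0.181).

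Epha3, a receptor for A ephrins, read 6.29, 5.62 and 46.7 RPKM in osteogenic libraries, 0.350, 2.18 and 0.833 RPKM in treated and 0.408, 1.41 and 0.617 RPKM in untreated adipogenic ones. Osteogenic library 6 stood far above the other 2, which were themselves above all adipogenic libraries. The log2 difference of treated adipogenic from osteogenic libraries was −4.12 (SE 1.08, adjusted p = 0.0354). It was lost without osteogenic library 6 and without treated library 4 or 6 (adjusted p up to 0.115, log2 difference −5.05 to −2.41). Against untreated adipogenic libraries it missed the threshold (osteogenic minus adipogenic 4.59, SE 1.10, adjusted p = 0.0531).

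Outside the Eph system Unc5b, which netrins bind, stood at 91.9, 69.6 and 56.8 RPKM in osteogenic libraries, above every adipogenic library of either kind (log2 difference −1.46, SE 0.25, adjusted p = 0.00718). Plxnd1, the Sema3e receptor, read 17.8, 16.9 and 11.4 RPKM in osteogenic libraries and was lower in treated adipogenic ones (−1.24, SE 0.23, adjusted p = 0.00926). Slit3 read 0.199, 2.13 and 0.563 RPKM in osteogenic, 0.0195, 0.0418 and 0.122 RPKM in treated and 0.0464, 0.061 and 0.0864 RPKM in untreated adipogenic libraries. It was thus near the floor in adipogenic cells and highest in osteogenic library 5, which also had the highest Cspg4 (112 CPM) and Eng (60.2 CPM) of all libraries, the part of which was not tested. The log2 difference was −3.96 (SE 0.98, adjusted p = 0.0292), lost without osteogenic library 5 or 6 and without treated library 4 or 5 (adjusted p up to 0.0861). Sema4c (−0.81, SE 0.23, adjusted p = 0.0441) and Sema6d (−3.96, SE 1.11, adjusted p = 0.0443) were the 2 semaphorins lower in treated adipogenic cells.

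Semaphorins made up 4 of the 6 genes that were higher in treated adipogenic than in osteogenic cells, and 19 of the 55 members tested. Sema4b had the lowest adjusted p of the 6, with a log2 difference of 1.27 (SE 0.13, adjusted p = 0.000653). Sema5a, at 6.09, 1.35 and 1.43 RPKM in treated libraries, was higher by 3.10 (SE 0.59, adjusted p = 0.0107), with treated library 4 well above the other 2. Sema3f, at 18.8, 27.1 and 21.9 RPKM in osteogenic libraries, lay below each treated value (0.75, SE 0.20, adjusted p = 0.0403). Sema4a, a class 4 semaphorin of immune cells, was low at 0.213, 0.198 and 0.289 RPKM in treated and 0.106, 0.0487 and 0.0731 RPKM in osteogenic libraries, which did not overlap (1.60, SE 0.42, adjusted p = 0.036). Unc5a, at 0.123, 0.0812 and 0.129 RPKM in osteogenic libraries, was higher in treated ones by 1.57 (SE 0.42, adjusted p = 0.0388). Slit2 was higher by 2.86 (SE 0.77, adjusted p = 0.0392), and its log2 change between osteogenic and untreated adipogenic cells was −0.45 (SE 0.72, adjusted p = 0.756).

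Of the 17 calls 7 held in each of the 6 fits that left out 1 library: Efna2, Ephb3, Ephb4, Plxnd1, Sema4b, Sema5a and Unc5b. Sema4a, Unc5a and Sema6d lost theirs in every fit (adjusted p up to 0.12, 0.13 and 0.122). Efnb1 kept its call only without treated library 5, Sema3f and Sema4c only without treated library 4, and Slit2 only without treated library 6, with adjusted p up to 0.139, 0.139, 0.125 and 0.131. Efna4 lost its call without treated library 4 or 6 or osteogenic library 4 or 5 (adjusted p up to 0.106).

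**Figure D3:**
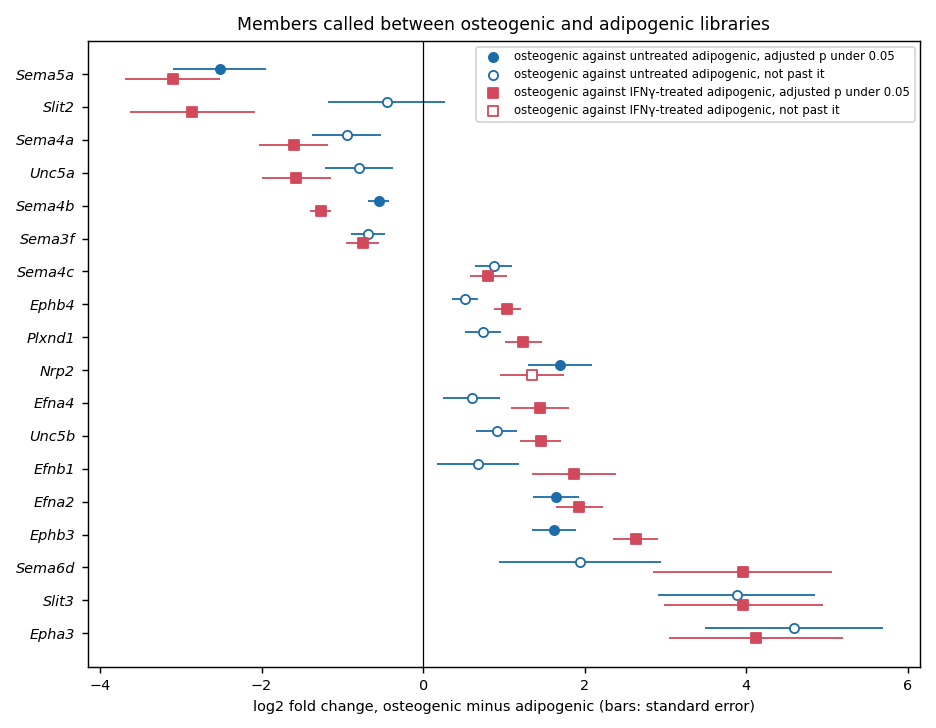
Points are log2 fold changes of osteogenic against untreated adipogenic libraries (circles) and of osteogenic against IFNγ-treated adipogenic libraries (squares), with bars for the standard error, for the 18 members called in either. Filled points passed an adjusted p of 0.05: 5 of the circles and 17 of the squares, with Nrp2 called against untreated libraries and not against treated ones.

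**Figure D4:**
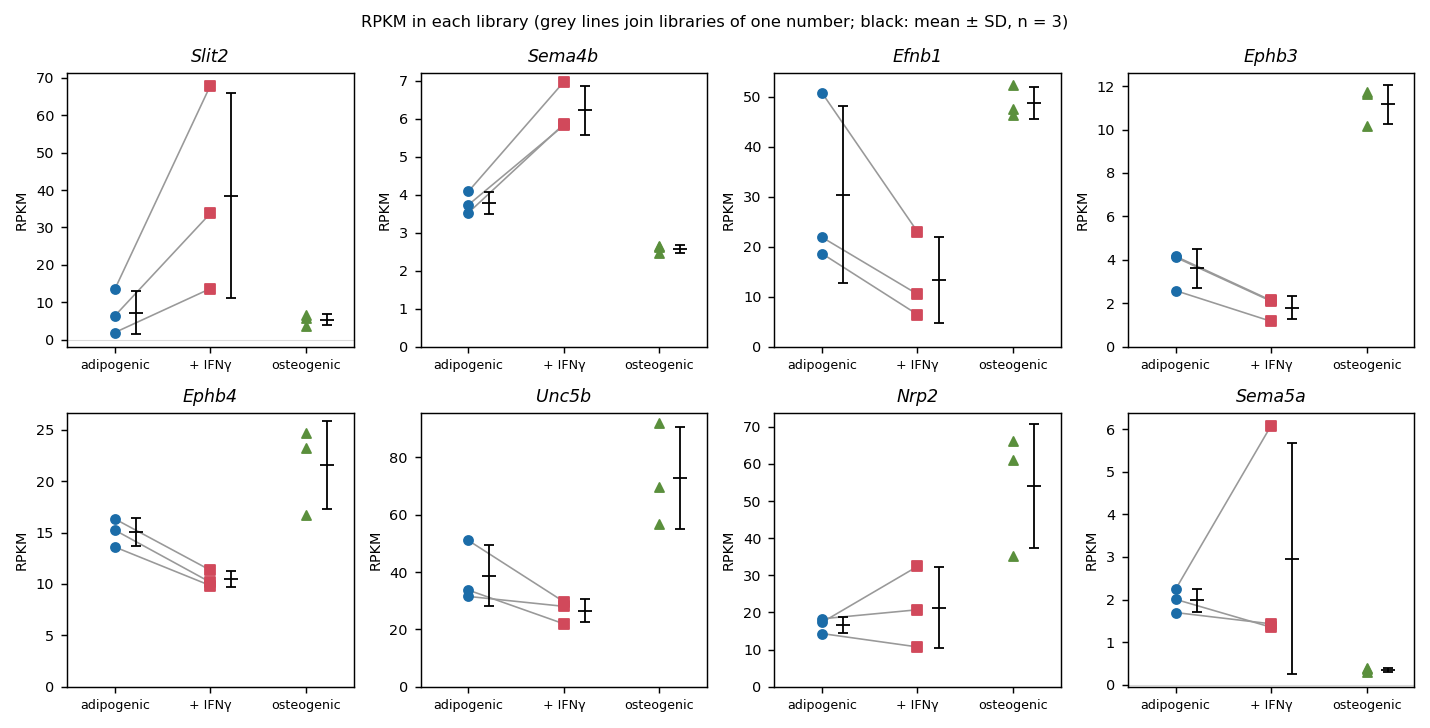
RPKM of 8 members in each of the 9 libraries, on linear axes that include 0. Grey lines join the adipogenic libraries of one number, and black marks give the mean and SD of 3 libraries. Slit2 rises along each line, Efnb1, Ephb3 and Ephb4 fall along each line, and the osteogenic libraries of Ephb3, Nrp2 and Unc5b lie above all adipogenic ones.

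These genes varied more among the untreated adipogenic cultures than most genes did. On the scale of CPM plus 0.1, the highest of the 3 untreated libraries was more than 4-fold above the lowest in 16 of 55 members (29.1%), against 8.85% of all genes tested. The median of this ratio was 2.64-fold over the members and 1.49-fold over all genes. Without the added 0.1 the ratio of highest to lowest CPM was 128 for Robo1, 36.3 for Sema4f, 33.3 for Sema7a, 30.2 for Slit1 and 14.4 for Plxnc1. The order of the 3 numbers was the same with and without IFNγ in 34 of 55 members (61.8%), against 47.4% of all genes. In 46 of 55 members (83.6%) the range among untreated libraries exceeded the mean change within pairs, against 79.8% of all genes. Sema7a, for instance, was lowest in number 4 and highest in number 5 in both conditions, and Robo1 likewise. Osteogenic libraries followed the order of the untreated adipogenic numbers in 8 of 55 members (14.5%), against 14.9% of all genes, so their numbers were not treated as pairs. In these bulk libraries fewer cells that express a gene and less RNA per cell cannot be told apart.

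**Figure D5:**
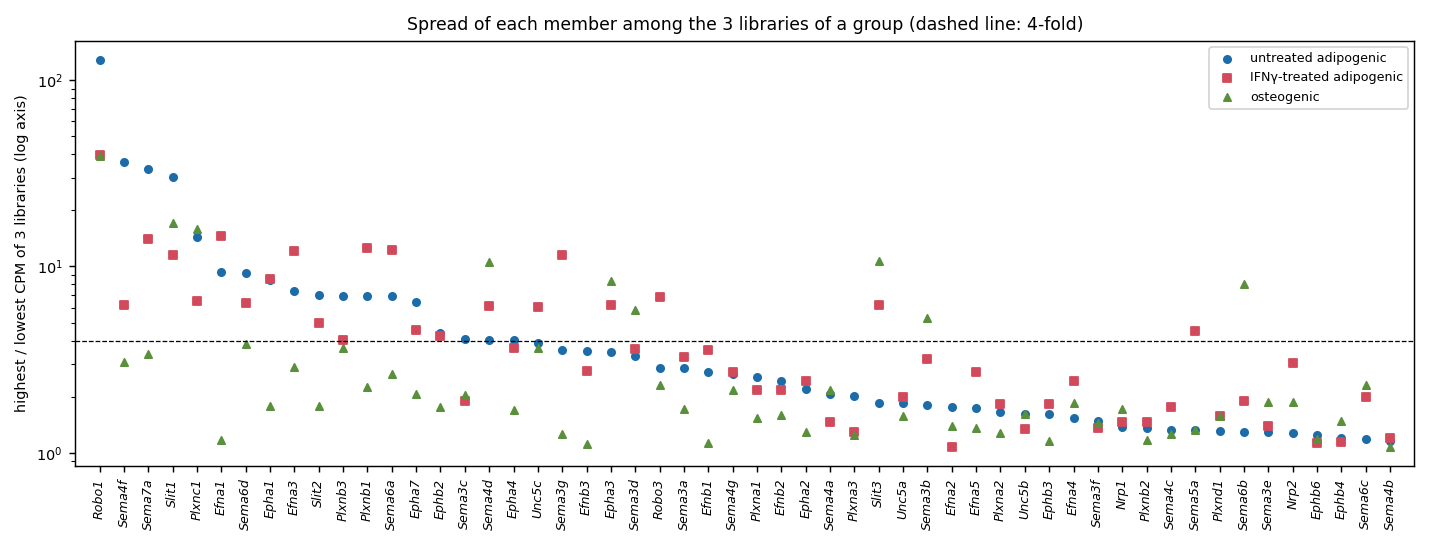
Points give the highest divided by the lowest CPM among the 3 libraries of each group, on a log axis, for tested members with counts in each untreated library, ordered by the untreated adipogenic ratio. Robo1 leads with a ratio of 128 in untreated, 39.8 in treated and 39.1 in osteogenic libraries, and Sema4b is at the low end with 1.16, 1.20 and 1.08.

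The 9 members that did not pass the filter were Epha5, Epha6, Epha8, Epha10, Ephb1, Plxna4, Robo4, Sema5b and Unc5d. Epha6 had 0 counts in all libraries. Plxna4 had 39 counts in all, and Epha8, Epha10, Ephb1, Sema5b, Robo4 and Unc5d had 1 to 6. Epha5, an A-ephrin receptor of the nervous system, was singled out after its values were seen: it had 0 counts in the 6 untreated adipogenic and osteogenic libraries and 3, 19 and 11 counts in treated libraries 4, 5 and 6. Taken over the group and against a floor of 3 counts over the untreated group, this was at least 11.7-fold higher. An edgeR fit without the filter gave an adjusted p of 0.157, so it was not called.

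Other genes of these pathways were read from 4 lists. In the paired IFNγ comparison 2 of 13 tested netrin, RGM and FLRT genes rose and 1 fell, 2 of 21 semaphorin effectors rose and 3 fell, 1 of 22 Eph effectors rose and 2 fell, and 1 of 21 Slit and Robo effectors rose and 3 fell. Together these were 15 of 77 genes (19.5%), against 16.6% of all genes, with 6 higher (8.61% of all genes) and 9 lower (8.02%). Without the pairing none of these 77 genes passed in edgeR, against 2.26% of all genes tested. An unadjusted edgeR p under 0.05 was found for 9 of 77, against 2159 of 15098 genes tested. DESeq2 called 6 of the listed genes, against 6.75% of all genes. Between osteogenic and untreated adipogenic cells the 4 lists gave 1, 2, 1 and 3 genes higher and 0, 0, 0 and 2 lower, in all 9 of 77 (11.7%) against 5.17% of all genes tested (1.98% higher and 3.19% lower). The list medians there were 0.09, 0.17, −0.13 and 0.07, against −0.02 over all genes. Draxin, which binds netrin and its receptor Dcc, had 8.45 ± 2.17 CPM in osteogenic and 0.959 ± 0.884 CPM in untreated adipogenic libraries (adjusted p = 0.0402). Farp2, which binds plexin A, had 91.2 ± 7.34 and 28.7 ± 8.91 CPM (adjusted p = 0.00948), and Dpysl3, a collapsin response mediator, 517 ± 280 and 103.6 ± 37.9 CPM (adjusted p = 0.0257). Sdc3, a heparan sulphate proteoglycan of the kind that Slits bind, had 737 ± 98.5 CPM in osteogenic and 154.6 ± 25.4 CPM in untreated adipogenic libraries (SD, n = 3, adjusted p = 0.00173). Vasp and Itsn1, an actin regulator and an exchange factor of EphB signalling, were higher in osteogenic cells by log2 changes of 0.88 (adjusted p = 0.0122) and 0.63 (adjusted p = 0.0366), and Ablim3 was lower by −4.75 (adjusted p = 0.0177).

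In treated adipogenic against osteogenic cells the same lists gave 1, 1, 2 and 2 genes higher and 2, 4, 4 and 4 lower, in all 20 of 77 (26%) against 16.7% of all genes tested (9.2% higher and 7.52% lower). Sdc3 (log2 difference −2.11, adjusted p = 0.000365), Dpysl3 (−3.74, 0.00175), Vasp (−1.02, 0.00198), Farp2 (−1.68, 0.00276), Gpc1 (−2.69, 0.00306), Itsn1 (−0.83, 0.00536), Draxin (−3.88, 0.00898), Mical1 (−1.44, 0.0108) and Flrt3 (−2.43, 0.023) were lower in treated adipogenic cells. Abl2 (1.45, 0.0144), Vav3 (2.15, 0.0183) and Ntng2 (2.88, 0.0445) were higher there. Gpc1 is a heparan sulphate proteoglycan like Sdc3, Abl2 is a tyrosine kinase, Vav3 acts downstream of Eph receptors, and Ntng2 is a membrane-anchored netrin.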

How the data were processed

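Poly(A) RNA of 9 libraries was sequenced as single reads after directional library preparation, per the labels' protocols. The deposited values were whole-number read counts per Ensembl gene, not normalized, with exonic lengths. Build mm9, CASAVA 1.8.0 and bedtools 2.11 are listed in the submitters' processing notes. Strand setting and filters, and also the aligner and counting tool, were not given in the sources used here. Groups were taken from the titles and the series design. Of several identifiers with one name, that with most counts was kept.

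Testing used edgeR 4.0.16 under R 4.3.3: filterByExpr by group (15098 of 24186 genes kept), TMM scaling, and a robust quasi-likelihood fit to all 9 libraries with a term for the group. Two-sided F tests were adjusted with Benjamini-Hochberg over all genes tested, with a threshold of 0.05. The biological coefficient of variation was 0.378. The paired fit used the 6 adipogenic libraries with the number as a block. The pairing was decided from the correlations of deviations in the report, before calls were compared; osteogenic libraries correlated with same-numbered adipogenic ones at −0.0546 to 0.0552. CPM used TMM-scaled library sizes, and RPKM used the deposited exonic length. The unpaired fit was checked on simulated counts, and the paired fit was not. Alternatives were RLE scaling, DESeq2 1.42.0, no filter, only the libraries compared, the number as a block, and leaving out each library. A fit leaving out 1 pair was chosen after seeing the data. Exact permutation of 3 against 3 libraries, whose smallest two-sided p is 0.1, was not used.

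Members, gene lists and alternatives were chosen with earlier results of these data known. Values in every library are given for up to 12 called members of each comparison whose higher group averaged 1 CPM or more, the most abundant member of each family and 17 members that the rule lists by name. Up to 3 called genes are named per list and comparison. The list entries Grb4, Emr1 and Cd3e had no match.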

Additional observations from a re-analysis of the deposited data

How the results depend on the processing

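None of the 55 tested members reversed its direction with a call on either side, under any setting that gave it a value. The count of members called was 1 with IFNγ, 5 for osteogenic against untreated adipogenic and 17 for treated adipogenic against osteogenic cells. With DESeq2 these counts were 5, 14 and 21 (6.75%, 14% and 22.8% of all genes), with no filter beyond 1 count 0, 2 and 10 (1.34%, 2.69% and 9.67%), with only the 6 libraries compared 0, 5 and 13 (1.21%, 3.59% and 15.4%), and with RLE scaling 1, 4 and 18 (2.2%, 5.16% and 16.6%). The replicate block over all 9 libraries gave 2, 9 and 22 (3.14%, 8.24% and 21.6%), but osteogenic numbers share no more than a number with the others. The number as a block over the 6 adipogenic libraries gave 18 with IFNγ (16.6%). Leaving out each library in turn gave 0 to 1, 0 to 3 and 9 to 11 (1.25% to 1.79%, 1.02% to 3.07% and 8.46% to 12.8%). With 1 pair left out, this block gave 13, 15 and 2 (10.5%, 10.1% and 2.52%). The cause of these shifts was not tested, except that a left-out library lowers the number of samples. Of the values for single members under an alternative, 1851 kept their side of the threshold, 101 lost the call and 79 gained it. DESeq2 gave no adjusted p for Epha3. Scaling moved the median of all genes by little: it was −0.02, −0.02 and 0.03 with TMM and −0.03, −0.02 and 0.03 with RLE. Floors limit statements on members under about 3 counts per library, and 3 libraries a group limit the rest.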
